A study of Homo sapiens with 6 samples.

Results

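The genes described here encode the subunits of 3 human chromatin remodelling complexes, INO80, SRCAP and TIP60, together with the histone variant H2A.Z. They were listed by name: 12 genes of the INO80 complex, 3 of the SRCAP complex, 3 shared by SRCAP and TIP60, ACTL6A, which all 3 complexes hold, 10 of the TIP60 complex, and H2AZ1 and H2AZ2. All 31 were found among the 57820 genes of the count tables by matching gene identifiers to symbols, and all 31 passed the filter on low counts, which kept 16006 genes. Their lowest estimated count in any library was 214.

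RNA sequencing of total RNA was carried out in the human prostate cancer line C4-2B-ENZR, a derivative of LNCaP whose name denotes resistance to enzalutamide, a drug used against prostate cancer. The cells carried either an siRNA against RUVBL1 or a negative-control siRNA, with 3 libraries in each group, numbered 1 to 3 in the labels. Both groups were the same line grown in 1640 medium with serum and antibiotics; the sources used here do not state the number and sequence of the siRNAs, their dose, the time of harvest or whether enzalutamide was present. Nothing in the labels states that the libraries came from separate cultures, so every p-value reflects the variation among these 6 libraries alone, and that variation may be technical.

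RUVBL1 and its partner RUVBL2 are AAA+ ATPases that form a ring on which the INO80, SRCAP and TIP60 complexes are built. Each complex has its own large ATPase (INO80, SRCAP or EP400). SRCAP and EP400 place the histone variant H2A.Z into nucleosomes, INO80 slides nucleosomes and acts on those that hold H2A.Z, and the TIP60 complex also acetylates histones through KAT5. H2A.Z sits beside the start sites of active genes and at enhancers. The question addressed here is whether transcripts of the other subunits and of H2A.Z changed when RUVBL1 was lowered.

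RUVBL1 (ENSG00000175792.7) itself, measured as counts scaled to a common library size (normalized counts), had 2725, 2618 and 2710 in the RUVBL1 siRNA libraries, against 4681, 4654 and 4758 in the control siRNA libraries. It was lower in every RUVBL1 siRNA library, at 57.1% of the control mean (log2 fold change -0.81, SE 0.0253, edgeR adjusted p = 3.74e-10). The estimated counts summed to between 18985542 and 36054489 per library. Replicate 1 of both groups stood apart: 768 tested genes, none of them a member, were at 0 in both replicate 1 libraries. All 8 luminal prostate markers given here were detected; with TMM factors 5 of them fell (KLK2, FOLH1, KRT8, KRT18 and EPCAM), while KLK3, HOXB13 and TMPRSS2 did not pass the test. With library totals KRT18 did not pass (-0.038), and KLK3 (0.088) and HOXB13 (0.12) were called higher. They had summed normalized counts of 84722 to 88069 in RUVBL1 siRNA libraries and 100822 to 103338 in control siRNA libraries, a difference carried mostly by FOLH1 (30870 ± 316 after RUVBL1 siRNA and 39350 ± 96.97 after control siRNA) and KRT8 (12930 ± 183 and 18180 ± 409; SD, n = 3 each). Of the 3 basal markers, KRT5 and KRT14 were at 0 in all 6 libraries and TP63 reached at most 1 normalized count. Of 9 markers of other cell types found, COL1A2, DCN, LUM and CD3E were at 0. COL1A1 was detected, with 238 ± 19.2 normalized counts after RUVBL1 siRNA and 237 ± 14.6 after control siRNA (SD, n = 3 each). VWF averaged 42.3 ± 2.42 and 36.5 ± 3.33, PTPRC 8.7 and 9.8, and CD14 4.7 and 2.6. The 9 summed to 427 to 489 normalized counts after RUVBL1 siRNA and 571 to 629 after control siRNA. That difference was one of CD68, a macrophage marker also found in other cells, with 165 ± 18.2 normalized counts after RUVBL1 siRNA and 321 ± 17.0 after control siRNA (SD, n = 3 each). The part of these marker differences in the member results was not tested. These are bulk libraries, in which fewer cells of a kind and less RNA per cell cannot be told apart.

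Of the 31 members, 10 rose and 6 fell after RUVBL1 siRNA at an adjusted p of 0.05 in edgeR's quasi-likelihood test, and 15 did not pass. Among all 16006 genes tested, 19.1% were higher and 23.1% lower by the same rule, so that 42.2% of all genes were called in 1 direction or the other. The members that rose were INO80D, YY1, ZNHIT1, YEATS4, EPC1, EPC2, MRGBP, MORF4L2, H2AZ1 and H2AZ2. Those that fell were INO80, NFRKB, MCRS1, SRCAP, ACTL6A and BRD8. The changes were small. The largest, that of INO80D, was 1.35-fold, and the median absolute log2 fold change was 0.092 over the 31 members, against 0.19 over all genes tested. The members were also more abundant, with a median of 1416 normalized counts against 496 over all genes tested. The 3 libraries of each group did not overlap for 9 members that were higher (25.3% of all genes tested) and for 8 that were lower (27.4%). The exact two-sided permutation test cannot go below p = 0.1 with 3 libraries against 3, and that value was reached by these 17 members.

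The falls depend on how libraries are scaled. The counts were scaled with TMM factors, which assume that most genes do not change. With library totals alone, log2 fold changes shifted upward by a median of 0.0993, and then 16 members were called higher and 0 lower, against 31.1% and 14.4% of all genes tested. The 6 members called higher with library totals and not with TMM factors were UCHL5, ACTR6, DMAP1, ING3, MORF4L1 and MBTD1, with edgeR adjusted p of 0.000908 to 0.0349. The median log2 fold change of the members was 0.036 with TMM factors, against 0.012 over all genes tested, and 0.14 with library totals, against 0.11. Upper quartile factors gave 12 members higher and 2 lower (24.1% and 19.5% of all genes tested). A test against a minimum fold of 1.1 called INO80D, YY1 and H2AZ2 higher and none lower (10.7% and 14.1%). With the replicate number added as a block, 10 were higher and 6 lower (23.4% and 25.6%), and without replicate 1 of both groups 7 were higher and 4 lower (20.9% and 24.2%). Members were also set against the mean log2 count of the 31, a measure chosen after the data were seen. On this measure 7 members were higher and 10 lower without overlap between groups. The share of all genes without overlap on it was not calculated, so these counts have no background. The 10 lower include INO80E, ACTR5, VPS72 and KAT5, which were not called with TMM factors. H2AZ1, MORF4L2 and YEATS4, called higher with TMM factors, overlapped on that measure. Within a library, the ratio of 2 members does not depend on scaling, and such ratios are given after the single genes.

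**Figure D1:**
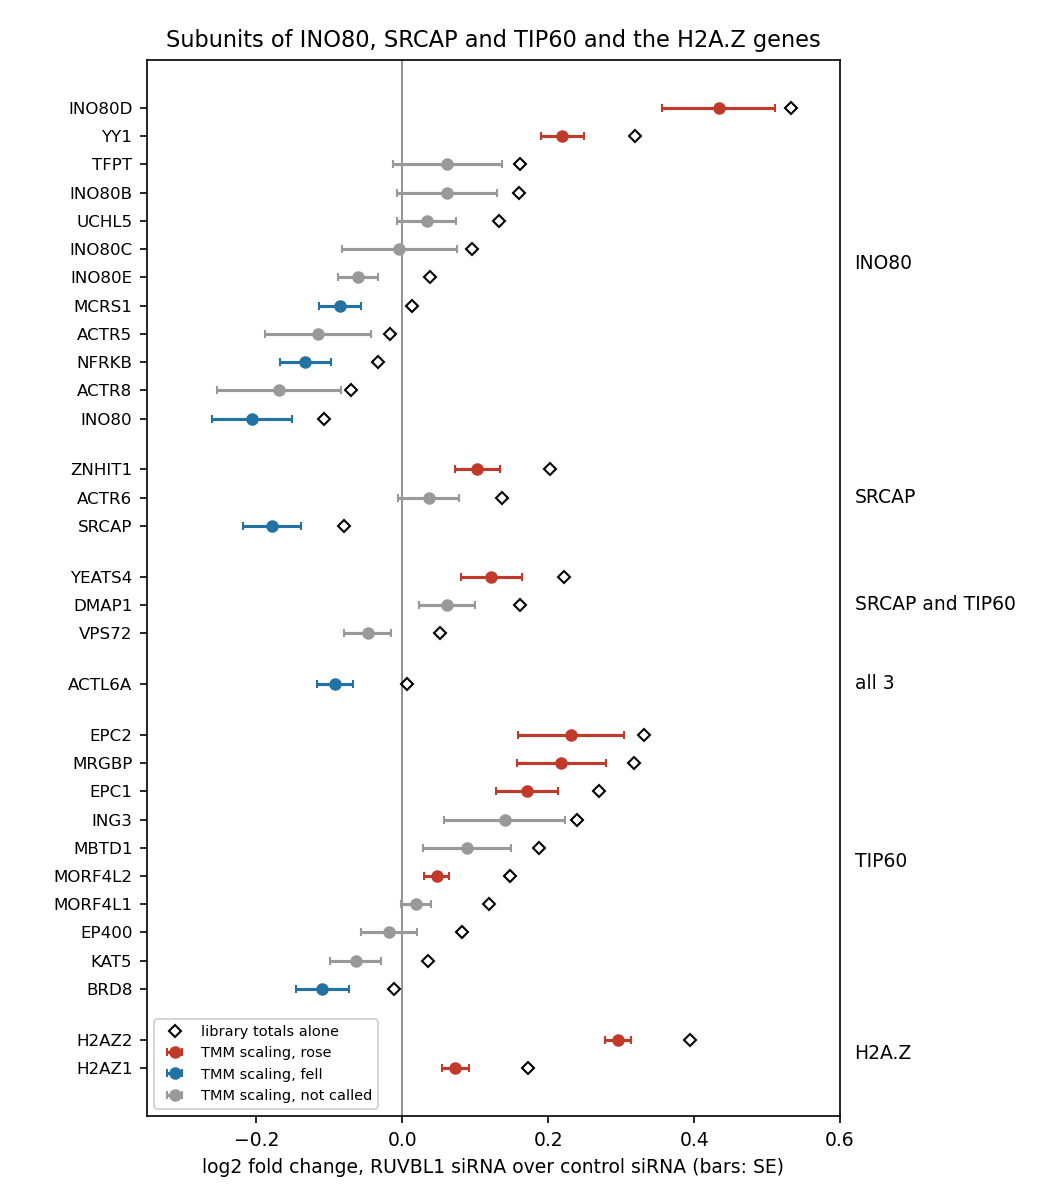
Log2 fold change of each of the 31 members, RUVBL1 siRNA over control siRNA, grouped by complex: circles with bars are edgeR estimates with TMM scaling and 1 SE, coloured by the call at an adjusted p of 0.05, and open diamonds are values with library totals alone. With TMM scaling INO80D stands highest at 0.43 and INO80 lowest at -0.21, and each diamond lies to the right of its circle.

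In the INO80 complex, 2 of 12 genes rose and 3 fell (against 19.1% and 23.1% of all genes tested), with a median log2 fold change of -0.032. INO80 (ENSG00000128908.11), the ATPase and scaffold of the complex, had 736, 699 and 649 normalized counts in RUVBL1 siRNA libraries and 820, 771 and 812 in control siRNA libraries. Every RUVBL1 siRNA library was below every control siRNA library (log2 fold change -0.21, SE 0.0554, edgeR adjusted p = 0.00951). With library totals the value was -0.11 and did not pass (edgeR adjusted p = 0.155).

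The opposite direction was seen for INO80D (ENSG00000114933.11), a metazoan-specific subunit that binds the N-terminal part of the INO80 protein. It had 610, 488 and 530 normalized counts in RUVBL1 siRNA libraries, against 405, 405 and 394 in control siRNA libraries. The groups were well apart, although the RUVBL1 siRNA libraries spread more widely (543 ± 62.1) than the control siRNA libraries (402 ± 6.72; SD, n = 3 each). Its log2 fold change of 0.43 (SE 0.0771, edgeR adjusted p = 0.000608) was the largest of the 31.

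YY1 (ENSG00000100811.6), a zinc-finger transcription factor that copurifies with INO80 and also acts on its own, had 2903, 2857 and 2848 normalized counts after RUVBL1 siRNA and 2396, 2489 and 2506 after control siRNA. It was thus 1.16-fold higher with no overlap (log2 fold change 0.22, edgeR adjusted p = 5.8e-05). NFRKB (ENSG00000170322.10), a DNA-binding protein of the metazoan module, had 1498, 1511 and 1520 normalized counts in RUVBL1 siRNA libraries, against 1733, 1638 and 1598 in control siRNA libraries. The log2 fold change of NFRKB was -0.13 (edgeR adjusted p = 0.00895), and -0.034 with library totals (edgeR adjusted p = 0.519).

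MCRS1 (ENSG00000187778.9), a forkhead-associated domain protein that also belongs to other complexes, had 1604, 1618 and 1622 normalized counts in RUVBL1 siRNA libraries and 1725, 1713 and 1703 in control siRNA libraries. The groups were narrow and separate, but the log2 fold change was only -0.086 (edgeR adjusted p = 0.0311), and 0.013 when libraries were scaled by their totals. Its call was also lost in the edgeR fit when any of 5 of the 6 libraries was left out (adjusted p of 0.0524 to 0.0725 in those fits) and in DESeq2 (adjusted p = 0.102).

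The other 7 genes of the complex did not pass the test. These are INO80B, INO80C, INO80E and TFPT, UCHL5, a deubiquitinase shared with the proteasome, and ACTR5 and ACTR8, actin-related proteins by which INO80 grips nucleosomes. Their log2 fold changes ran from -0.17 for ACTR8 to 0.062 for TFPT, and their normalized counts averaged 291 ± 4.68 for ACTR5 to 2507 ± 43.1 for INO80E after RUVBL1 siRNA, against 316 ± 7.09 and 2615 ± 3.84 after control siRNA (SD, n = 3 each). The groups did not overlap for ACTR5 and INO80E, which were lower in all RUVBL1 siRNA libraries but missed the threshold (edgeR adjusted p of 0.238 and 0.0997).

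In the SRCAP complex, the ATPase fell and 1 of 2 other specific subunits rose. SRCAP (ENSG00000080603.12) had 2283, 2117 and 2051 normalized counts in RUVBL1 siRNA libraries, against 2497, 2388 and 2416 in control siRNA libraries. It was lower in each RUVBL1 siRNA library (log2 fold change -0.18, SE 0.0396, edgeR adjusted p = 0.00292). With library totals it was -0.079 (edgeR adjusted p = 0.156). ZNHIT1 (ENSG00000106400.7), a zinc-finger HIT protein needed for H2A.Z exchange, had 2126, 2120 and 2064 normalized counts in RUVBL1 siRNA libraries and 1914, 1976 and 1984 in control siRNA libraries. All 3 libraries of RUVBL1 siRNA were higher (log2 fold change 0.10, edgeR adjusted p = 0.0169), and the call was lost without control siRNA replicate 1 (adjusted p = 0.0563) or RUVBL1 siRNA replicate 2 (adjusted p = 0.0645). ACTR6, an actin-related protein of the complex, had a log2 fold change of 0.036 (edgeR adjusted p = 0.551).

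Of the 3 subunits that SRCAP and TIP60 share, YEATS4 passed the test with TMM factors, and DMAP1 passed with library totals (log2 fold change 0.16, edgeR adjusted p = 0.0063) and with upper quartile factors (0.10, adjusted p = 0.0404). YEATS4 (ENSG00000127337.2), also called GAS41, reads acylated histone H3 and had 1609, 1708 and 1518 normalized counts after RUVBL1 siRNA and 1464, 1520 and 1458 after control siRNA. The groups overlapped by 1 library on each side (log2 fold change 0.12, edgeR adjusted p = 0.034), and the call was lost when any control siRNA library or RUVBL1 siRNA replicate 1 or 2 was left out (adjusted p of 0.0581 to 0.181). VPS72, a chaperone of H2A.Z, averaged 1495 ± 29.6 normalized counts after RUVBL1 siRNA and 1545 ± 35.3 after control siRNA, and DMAP1 averaged 1447 ± 66.1 and 1385 ± 35.5 (SD, n = 3 each). ACTL6A (ENSG00000136518.12), the actin-related protein BAF53a, is shared by all 3 complexes and by SWI/SNF. It had 3266, 3198 and 3213 normalized counts in RUVBL1 siRNA libraries, against 3433, 3407 and 3476 in control siRNA libraries. The groups did not overlap (log2 fold change -0.092, edgeR adjusted p = 0.00918), but with library totals the value was 0.0069 and did not pass.

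The TIP60 complex had 4 of its 10 own genes higher and 1 lower (against 19.1% and 23.1% of all genes tested), with a median log2 fold change of 0.068. With library totals 7 were higher and 0 lower (against 31.1% and 14.4%). The enzymes of the complex did not pass the test. EP400 (ENSG00000183495.9), the ATPase, had 1322, 1405 and 1307 normalized counts in RUVBL1 siRNA libraries and 1409, 1327 and 1351 in control siRNA libraries. These ranges overlapped (log2 fold change -0.018, SE 0.0383, edgeR adjusted p = 0.777). KAT5 (ENSG00000172977.8), the acetyltransferase that gives the complex its name, had 1333, 1305 and 1301 normalized counts after RUVBL1 siRNA and 1407, 1389 and 1319 after control siRNA. The values of KAT5 also overlapped, with a log2 fold change of -0.064 (SE 0.0348, edgeR adjusted p = 0.17).

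The scaffold genes EPC1 and EPC2, homologues of the fly gene Enhancer of Polycomb, both rose. They join KAT5 to the rest of the complex. EPC1 (ENSG00000120616.11) had 899, 886 and 905 normalized counts in RUVBL1 siRNA libraries, against 786, 785 and 819 in control siRNA libraries, a gap wider than the spread in either group (log2 fold change 0.17, edgeR adjusted p = 0.00558). EPC2 (ENSG00000135999.7) was less abundant, with 446, 434 and 393 normalized counts after RUVBL1 siRNA and 374, 369 and 342 after control siRNA. All 3 RUVBL1 siRNA libraries were higher (log2 fold change 0.23, edgeR adjusted p = 0.0219). The EPC2 call was lost without control siRNA replicate 3 or without RUVBL1 siRNA replicate 1 or 2 (edgeR adjusted p of 0.0757 to 0.0963), and without the low-count filter (0.0549).

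These paralogues share a stretch of sequence around 1 annotated start site of EPC1 and that of EPC2, which is why both windows are shown. The windows are 300 bases from RefSeq (GRCh38.p14), 250 before the annotated start and 50 from it, printed on the gene's own strand, with matches to the searched motifs in capitals: the YY1 motif AANATGGC or its reverse complement and the GC box GGGCGG or its reverse complement. The windows are chr10:32347109-32347408 (minus strand) for EPC1, 1 of its 2 windows, and chr2:148644501-148644800 (plus strand) for EPC2.
EPC1: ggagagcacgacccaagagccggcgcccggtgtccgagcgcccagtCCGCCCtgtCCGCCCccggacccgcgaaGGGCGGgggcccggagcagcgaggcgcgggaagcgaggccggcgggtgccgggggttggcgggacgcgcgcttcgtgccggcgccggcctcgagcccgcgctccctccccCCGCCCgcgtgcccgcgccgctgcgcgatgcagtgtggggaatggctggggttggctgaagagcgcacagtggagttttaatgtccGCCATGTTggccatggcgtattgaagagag
EPC2: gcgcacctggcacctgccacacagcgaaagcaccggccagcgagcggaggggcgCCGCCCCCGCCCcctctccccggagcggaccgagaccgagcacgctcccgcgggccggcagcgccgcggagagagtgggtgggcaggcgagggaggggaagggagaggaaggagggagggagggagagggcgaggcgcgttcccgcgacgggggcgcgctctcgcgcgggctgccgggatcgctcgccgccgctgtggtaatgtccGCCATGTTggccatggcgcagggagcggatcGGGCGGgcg
The longest identical run is 26 bases, starting at base 13 after the annotated start in EPC1 and at base 3 in EPC2. The only YY1 motif match of each printed window lies within that run. The other EPC1 window shares a run of at most 8 bases with the EPC2 window. A motif match describes the letters and does not show binding.

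The reader and accessory subunits moved in both directions. BRD8 (ENSG00000112983.13), a bromodomain protein that reads acetylated histones, had 2560, 2615 and 2562 normalized counts in RUVBL1 siRNA libraries, against 2939, 2666 and 2748 in control siRNA libraries. It was lower in each (log2 fold change -0.11, edgeR adjusted p = 0.0274), with the widest gap at replicate 1. The call was lost without control siRNA replicate 1 (adjusted p = 0.0788) or without any RUVBL1 siRNA library (0.0549 to 0.0905), and with library totals the value was -0.011. BRD8 shares exon bases with KIF20A on the opposite strand, which averaged 3423 ± 34.9 normalized counts after RUVBL1 siRNA and 2660 ± 49.6 after control siRNA (SD, n = 3 each).

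MRGBP (ENSG00000101189.5), which binds the MORF4-family proteins, had 633, 549 and 574 normalized counts in RUVBL1 siRNA libraries and 503, 509 and 497 in control siRNA libraries. It was higher in all 3 (log2 fold change 0.22, edgeR adjusted p = 0.0125), and the call was lost without control siRNA replicate 3 (adjusted p = 0.0506) or RUVBL1 siRNA replicate 1 (adjusted p = 0.0509). MORF4L2 (ENSG00000123562.12), a paralogue of the chromodomain protein MORF4L1, had 9369, 9207 and 9259 normalized counts after RUVBL1 siRNA and 9064, 8928 and 8943 after control siRNA. This was only 1.03-fold higher (log2 fold change 0.047, edgeR adjusted p = 0.0422), although no library overlapped, and the call was lost when any of 5 of the 6 libraries was left out (adjusted p of 0.0748 to 0.162) or the low-count filter was dropped (0.58). ING3, a reader of trimethylated histone H3 lysine 4, MBTD1, a malignant brain tumour-repeat protein, and MORF4L1 did not pass, with log2 fold changes of 0.14, 0.088 and 0.019.

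Both H2A.Z genes rose, H2AZ2 more than H2AZ1. H2AZ2 (ENSG00000105968.14), which encodes the isoform H2A.Z.2, had 6066, 6219 and 6176 normalized counts in RUVBL1 siRNA libraries, against 4971, 5049 and 5022 in control siRNA libraries. The groups were far apart compared with their spread: 6154 ± 78.7 against 5014 ± 39.6 (SD, n = 3 each), which is 1.23-fold (log2 fold change 0.30, SE 0.0181, edgeR adjusted p = 7.78e-08). H2AZ1 (ENSG00000164032.7), which encodes the major isoform H2A.Z.1, had 24866, 25094 and 24941 normalized counts after RUVBL1 siRNA and 23433, 23799 and 23987 after control siRNA. It was 1.05-fold higher with no overlap (log2 fold change 0.073, SE 0.019, edgeR adjusted p = 0.00798), and the call was lost without the filter on low counts (adjusted p = 0.378). The 2 genes summed to 30933, 31314 and 31117 normalized counts after RUVBL1 siRNA, against 28404, 28848 and 29009 after control siRNA.

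The start-site windows of the H2A.Z genes are shown for comparison, since these nearly identical proteins are made from separate genes that changed by different amounts. They come from the same RefSeq table, chr7:44848038-44848337 (minus strand) for H2AZ2 and chr4:99950226-99950525 (minus strand) for H2AZ1, with matches to the CCAAT box (CCAAT or its reverse complement) and the GC box in capitals.
H2AZ2: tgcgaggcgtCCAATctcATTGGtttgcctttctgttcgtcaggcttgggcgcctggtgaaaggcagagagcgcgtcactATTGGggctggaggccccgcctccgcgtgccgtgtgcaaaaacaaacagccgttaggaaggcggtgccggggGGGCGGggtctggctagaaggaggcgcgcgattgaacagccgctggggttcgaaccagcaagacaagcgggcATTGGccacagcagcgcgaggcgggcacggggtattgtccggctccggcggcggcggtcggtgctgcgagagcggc
H2AZ1: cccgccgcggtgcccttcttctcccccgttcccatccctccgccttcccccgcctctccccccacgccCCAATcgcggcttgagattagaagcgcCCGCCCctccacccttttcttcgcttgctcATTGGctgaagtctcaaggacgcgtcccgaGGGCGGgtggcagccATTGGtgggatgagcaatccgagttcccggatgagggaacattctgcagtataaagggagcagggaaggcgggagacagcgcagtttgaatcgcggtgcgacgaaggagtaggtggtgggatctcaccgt
H2AZ2 holds 4 CCAAT boxes and 1 GC box in this window, and H2AZ1 holds 3 and 2, while the longest run the windows share is 9 bases. Over all members, 27 had a window and several had more than 1, giving 32 windows. The CCAAT box occurred in 31.2% of them against 34.6% of the 35116 windows of all genes, the GC box in 59.4% against 45.0%, and the YY1 motif in 25.0% against 6.58%. The E-box CACGTG occurred in 6.25% against 7.26%, and the ETS motif ACTTCCGG in 18.8% against 4.14%, with both strands searched for each motif and overlaps allowed. The median GC content was 64.2% in member windows and 58.7% in all windows. A YY1 motif match was found for 7 members. Of these, EPC1 (in both of its windows), EPC2 and ZNHIT1 rose, BRD8 fell, and KAT5, ACTR5 and INO80E did not pass. Of the 18 members with a GC box, 6 rose and 3 fell, and of the 9 with a CCAAT box, 4 rose and 1 fell. Of the 6 with an ETS motif, 1 rose and 0 fell, and of the 2 with an E-box, 0 rose and 1 fell. Over all 31 members, 10 rose and 6 fell. Whether a motif goes with a change was not tested, and the windows of all genes were not limited to genes tested here.

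**Figure D2:**
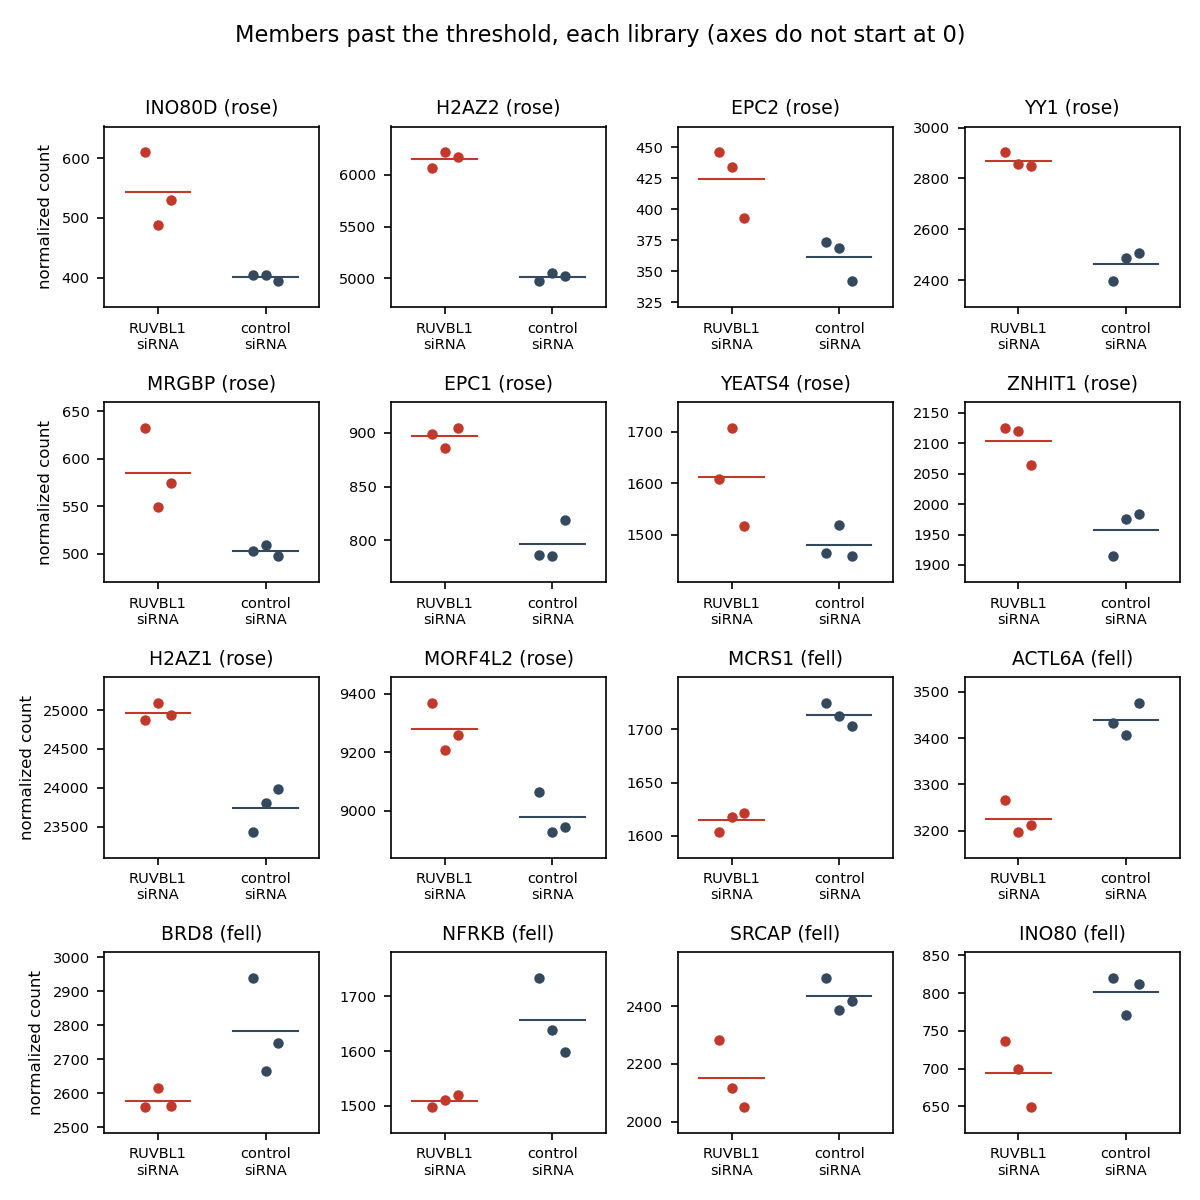
Normalized counts (vertical axes, which do not start at 0) in each library of the 16 members that passed the test, 1 panel a gene, with RUVBL1 siRNA left of control siRNA; points are libraries in the order of their numbers and lines are group means. Groups are separate in every panel except that of YEATS4, and the axes span a different range in each panel.

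Ratios of 2 members within a library carry no scaling, and 10 pairs were compared. The ratio of H2AZ1 to H2AZ2 counts was 4.099, 4.035 and 4.039 in RUVBL1 siRNA libraries and 4.714, 4.714 and 4.776 in control siRNA libraries. H2AZ2 therefore made up 19.8% ± 0.14 of H2A.Z counts after RUVBL1 siRNA and 17.4% ± 0.109 after control siRNA (SD, n = 3 each), with no overlap. INO80 to EP400 was 0.557, 0.497 and 0.496 after RUVBL1 siRNA, against 0.582, 0.581 and 0.601 after control siRNA, and SRCAP to EP400 was 1.73, 1.51 and 1.57, against 1.77, 1.80 and 1.79. Both ratios were lower in every RUVBL1 siRNA library, closest to the control siRNA libraries in replicate 1. VPS72 to ZNHIT1 was 0.697, 0.696 and 0.74 after RUVBL1 siRNA, against 0.828, 0.77 and 0.769 after control siRNA, and MORF4L1 to MORF4L2 was lower by 0.028 on the log2 scale. For these 5 pairs the two-sided exact permutation p was 0.1, the smallest possible with 3 libraries against 3. After Benjamini-Hochberg adjustment over the 10 pairs it was 0.2. The smallest possible p already lies above the threshold used for calls, so this test could not have passed any pair. Of all single genes tested, 25.3% were higher and 27.4% lower without overlap. The share of all gene pairs without overlap was not calculated, so the count of 5 pairs has no background. The other 5 pairs (EPC1 to EPC2, ACTR5 to ACTR8, INO80 to SRCAP, KAT5 to EP400 and ING3 to MRGBP) overlapped between groups. The share of EP400 among the counts of the 3 large ATPase genes was 32.1% ± 1.48 after RUVBL1 siRNA and 29.6% ± 0.159 after control siRNA (SD, n = 3 each).

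**Figure D3:**
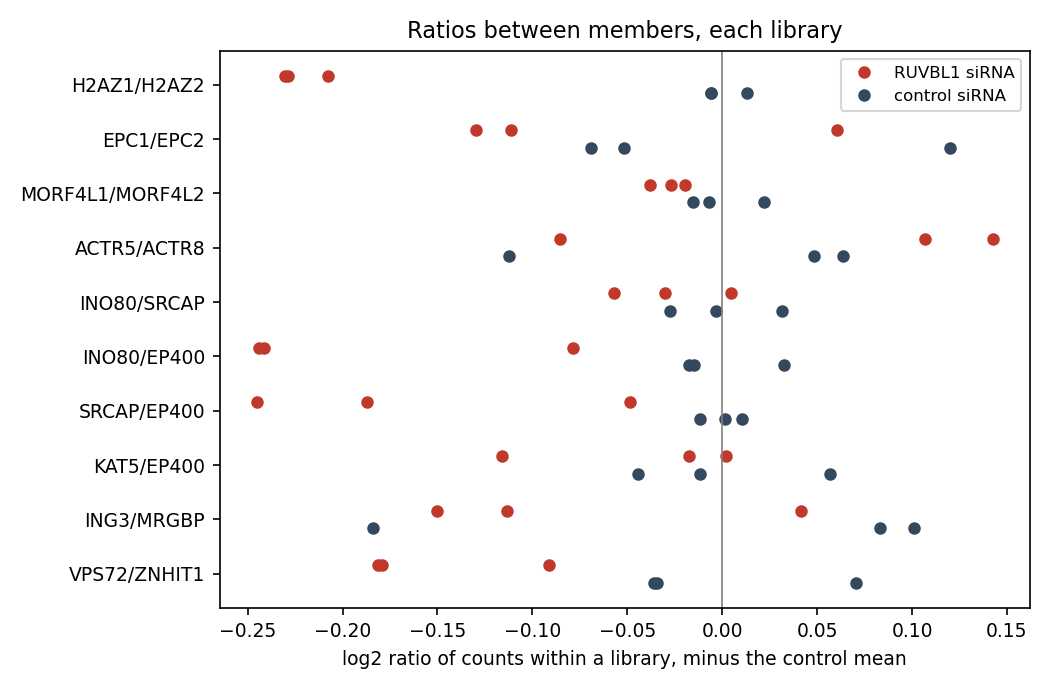
Log2 ratio of the counts of 2 members within a library for 10 pairs, minus the mean of the control siRNA libraries; points are libraries, with RUVBL1 siRNA above control siRNA in each row. H2AZ1/H2AZ2 shows the largest mean shift, -0.22, and the groups of 5 of the 10 pairs overlap.

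Levels were compared between members only per kilobase, using the median transcript length of each gene in GENCODE 29, with the caution that the transcripts used by these cells are not known. H2AZ1 was highest, at 22360 ± 104 normalized counts per kilobase after RUVBL1 siRNA and 21260 ± 252 after control siRNA (SD, n = 3 each). MORF4L2 followed at 10930 ± 97.2 and 10580 ± 88.2, then H2AZ2 at 9359 ± 120 and 7626 ± 60.3, MORF4L1 at 6076 ± 91.3 and 5995 ± 65.4, and ACTL6A at 5292 ± 59.2 and 5642 ± 57.8. The order of these 5 by median length was the same in both groups, with gaps beyond the spread of the libraries. The lowest were MRGBP, at 211 ± 15.4 after RUVBL1 siRNA and 181 ± 2.1 after control siRNA, and ACTR5, at 114 ± 1.82 and 123 ± 2.77. By this length the large ATPase genes lay close together at the low end: INO80 had 459 ± 28.9 after RUVBL1 siRNA and 529 ± 17.4 after control siRNA, EP400 had 429 ± 16.8 and 435 ± 13.4, and SRCAP had 362 ± 20.1 and 410 ± 9.56. After RUVBL1 siRNA, the INO80 and EP400 levels did not differ beyond their spread. The order depends on the length used: with the longest transcript of each gene INO80D was lowest, at 38.4 ± 4.4 after RUVBL1 siRNA and 28.4 ± 0.475 after control siRNA, and SRCAP was the highest of the large ATPase genes, at 183 ± 10.2 and 207 ± 4.83, with INO80 at 108 ± 6.79 and 124 ± 4.1 and EP400 at 105 ± 4.11 and 106 ± 3.28. H2AZ2, by the longest transcript, had 1618 ± 20.7 after RUVBL1 siRNA and 1318 ± 10.4 after control siRNA. That was below MORF4L1 (2043 ± 30.7 and 2015 ± 22.0) and ACTL6A (1697 ± 19.0 and 1809 ± 18.5). The ranks of the 31 members by the 2 lengths had a Spearman rho of 0.863.

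**Figure D4:**
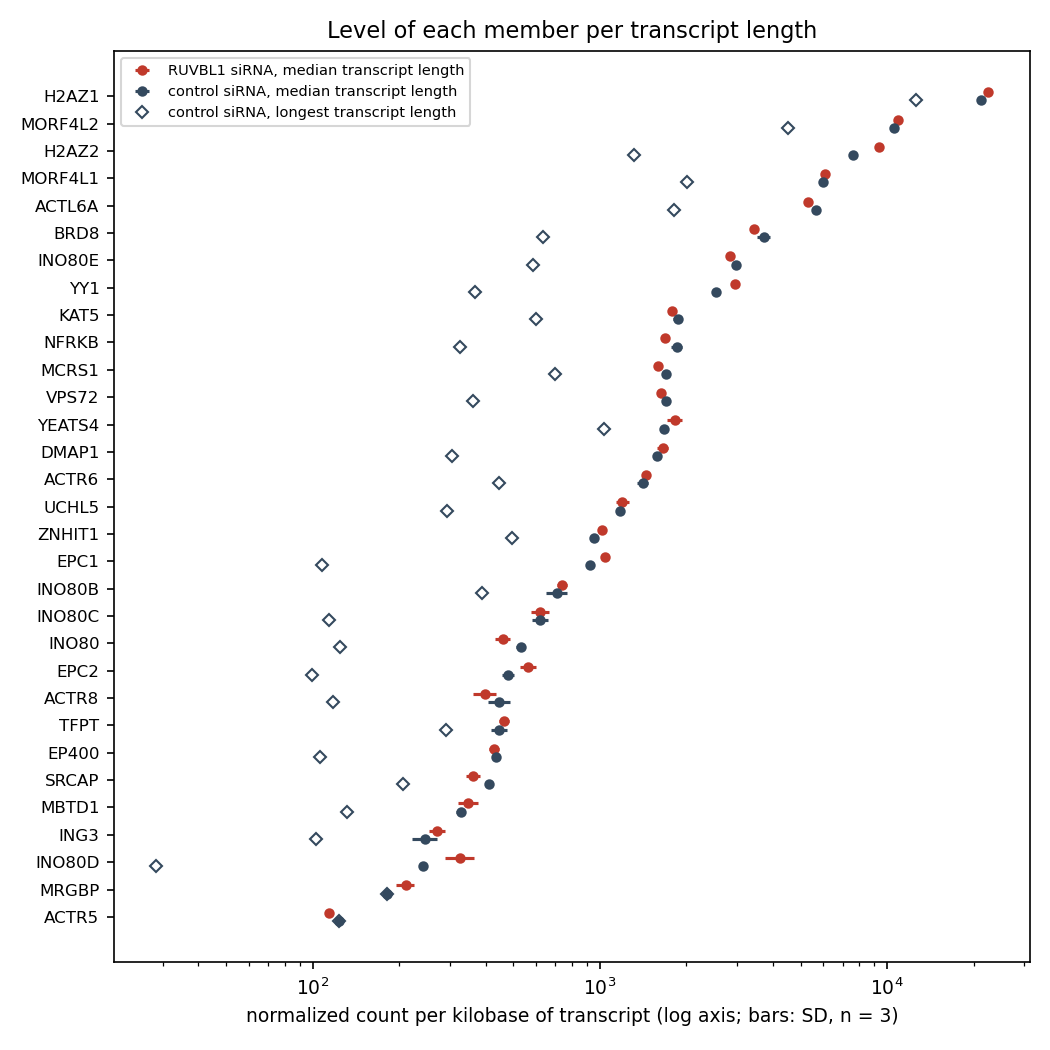
Level of each member in normalized counts per kilobase of median transcript length, on a log axis; filled points are group means with the SD of 3 libraries, RUVBL1 siRNA above control siRNA, and open diamonds are control siRNA means by longest transcript length. By median length H2AZ1 is the highest at 22360 and ACTR5 the lowest at 114 after RUVBL1 siRNA, and most diamonds lie to the left.

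Other genes of the same complexes also changed. RUVBL2 (ENSG00000183207.8) had 2620, 2387 and 2428 normalized counts in RUVBL1 siRNA libraries, against 2839, 2864 and 2747 in control siRNA libraries, lower in all 3 (log2 fold change -0.19, edgeR adjusted p = 0.0014; -0.086 and 0.0977 with library totals). TRRAP (ENSG00000196367.8), the scaffold of TIP60 and of SAGA, had 1043, 1083 and 1089 normalized counts after RUVBL1 siRNA and 1390, 1377 and 1417 after control siRNA. Its fall (log2 fold change -0.38, edgeR adjusted p = 2.24e-06) was larger than that of any of the 6 members that fell, and kept its call with library totals (-0.28). ACTB, the actin subunit of these complexes, is mostly cytoskeletal and rose by 0.25 (log2 fold change, edgeR adjusted p = 2.14e-07). ANP32E (ENSG00000143401.10), the chaperone that removes H2A.Z from nucleosomes, had 2820, 2896 and 2890 normalized counts in RUVBL1 siRNA libraries, against 2007, 1963 and 1941 in control siRNA libraries, a 1.46-fold rise (edgeR adjusted p = 2.42e-08).

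Remodelling complexes that do not hold RUVBL1 are given for comparison. Of 25 SWI/SNF genes, 6 rose and 6 fell (median log2 fold change 0.014), and the 2 smallest p-values belonged to SMARCD3 (-0.39) and BCL7C (0.38). Of 30 ISWI, CHD and NuRD genes, 5 rose and 10 fell (median -0.0098), with the smallest p-values for MTA2 (-0.32) and BAZ1A (-0.30). With library totals the counts were 11 higher and 2 lower for SWI/SNF and 10 higher and 4 lower for the others. Over all genes tested, 19.1% were higher and 23.1% lower with TMM factors, and 31.1% and 14.4% with library totals. Differences between these lists and the 31 members were not tested.

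**Figure D5:**
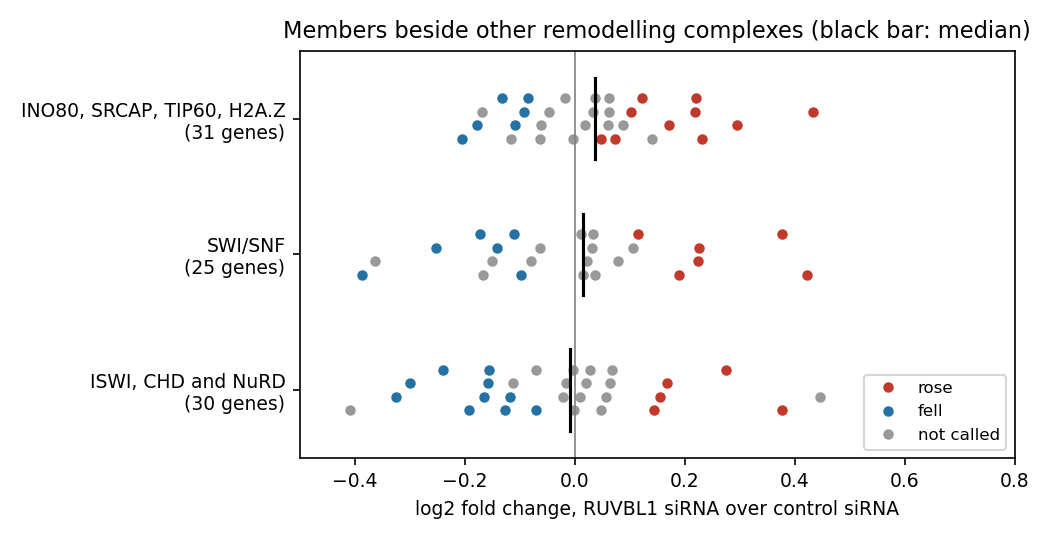
Log2 fold change, RUVBL1 siRNA over control siRNA, of the 31 members, 25 SWI/SNF genes and 30 ISWI, CHD and NuRD genes; points are genes, coloured by the call at an adjusted p of 0.05, their height within a row has no meaning, and black bars are medians. The medians lie at 0.036, 0.014 and -0.0098, and called genes lie on both sides of 0 in each list.

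Overlapping genes limit some of these values, because the strand setting of the counting is not given in the sources used here. In GENCODE 29, 21 of the 31 members share exon bases with another gene. For 5 of them, INO80B, INO80C, YY1, SRCAP and VPS72, such a gene lies on the same strand. Mean normalized counts after RUVBL1 siRNA and control siRNA were 0.36 and 1.4 for that of INO80C and 2.1 and 5.2 for that of VPS72. AC106886.2, within SRCAP, had 19.0 ± 19.9 and 6.59 ± 6.87. The same-strand genes of INO80B and YY1, and the others of SRCAP, have no value here. The opposite-strand genes of H2AZ1 and INO80 were at 0 in both groups. Besides BRD8, ACTL6A overlaps MRPL47 on the opposite strand, which averaged 2437 ± 32.0 normalized counts after RUVBL1 siRNA and 2604 ± 81.8 after control siRNA (SD, n = 3 each). ZNHIT1 overlaps PLOD3 on the opposite strand, which averaged 696 ± 10.7 normalized counts after RUVBL1 siRNA and 1034 ± 40.1 after control siRNA, and KAT5 overlaps RNASEH2C, with 1658 ± 18.2 and 1515 ± 54.0 (SD, n = 3 each). TFPT averaged 366 ± 15.3 after RUVBL1 siRNA and 351 ± 22.4 after control siRNA. It overlaps PRPF31 (1976 ± 49.1 and 1983 ± 85.2) and NDUFA3 (1592 ± 54.2 and 1445 ± 134), which had more counts. INO80E overlaps HIRIP3 (3142 ± 67.7 and 3203 ± 23.1) and DOC2A (1303 ± 12.8 and 1287 ± 34.3). Reads in the shared bases of such pairs may not be told apart, depending on the unknown strand setting. How much of each gene is shared was not measured. Pseudogenes, picked by symbol alone and of unchecked type, can also share sequence with members. Those of MORF4L1 summed to 650 normalized counts after RUVBL1 siRNA and 666 after control siRNA. That of EP400 had 304 and 322, beside 1345 and 1362 for EP400 itself, and those of H2AZ1 summed to 3.94 and 2.13.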

How the data were processed

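RNA sequencing was deposited for 3 libraries with an siRNA against RUVBL1 and 3 with a negative-control siRNA. Judged from the values, what the authors deposited are estimated counts for each gene without scaling for depth. Bowtie 0.12.2 and the mouse builds mm8 and mm9 are named, per the submitters' processing notes, which conflicts with the human gene identifiers of the deposited tables; the sources used here do not state the counter, human build, annotation or strand setting. Totals ran from 18985542 to 36054489, and the lowest member count of 214 limits the precision of the rarest members.

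Symbols were matched by gene identifier (51996 of 57820 genes). Estimated counts were rounded to whole numbers. The two-sided robust quasi-likelihood test of edgeR 4.0.16 (R 4.3.3) was run on the 16006 genes that filterByExpr kept, with TMM factors and a model holding the siRNA group alone. Adjusted p-values are Benjamini-Hochberg values over these genes, called at 0.05. Normalized counts are scaled to the mean effective library size of 26348516. Ratios and single genes had exact two-sided permutation tests.

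Per-library values were given for members past the threshold with separate groups, for the large ATPase genes, KAT5, H2AZ1 and H2AZ2, and the others by ranges; YEATS4 was added after its values were seen. For the other remodelling lists the 2 genes of smallest p were named. Some luminal markers of the fixed list are not reported here. The members and lists were chosen with earlier results of these data known.

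Libraries with the same number deviated together from their group means (correlations of 0.939, 0.819 and 0.823 across genes; 0.423, 0.191 and 0.22 without the genes at 0 in replicate 1), which meets the criterion for pairing by number; it comes from these values and not from the labels. The calls, p-values and ratio tests reported are unpaired, and a fit with the number as a block was an alternative. Replicates 2 and 3 correlated across numbers nearly as much (0.807 and 0.817, and 0.137 and 0.176 without the genes at 0 in replicate 1). For these replicates the correlations therefore do not establish pairing by number. Alternatives were DESeq2 1.42.0, limma-voom (limma 3.58.1), other scalings and filters, a minimum fold of 1.1, a replicate block and leaving out libraries. Bounding p by counting noise and centring on the members' mean were added after seeing the data. Promoter windows came from RefSeq (GRCh38.p14), transcript lengths and overlaps from GENCODE 29; other coordinates were not used.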

Additional observations from a re-analysis of the deposited data

How the results depend on the processing

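With library totals alone 16 members were higher and 0 lower, their median log2 fold change was 0.136, and 4981 genes were higher and 2297 lower over the whole table; the sign turned for INO80C (0.0952), INO80E (0.0384), MCRS1 (0.0135), VPS72 (0.052), ACTL6A (0.00691), KAT5 (0.0354) and EP400 (0.0812). With upper quartile factors 12 members were higher and 2 lower, with a median of 0.0778, and the sign turned for INO80C (0.0371) and EP400 (0.0238). Testing against a minimum fold of 1.1 left 3 members higher (INO80D, YY1 and H2AZ2) and 0 lower, where the usual test called 10 and 6, and 1707 and 2261 of all genes. NFRKB, BRD8, MCRS1 and ACTL6A lost their calls with both library totals and upper quartile factors.

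Leaving out 1 library at a time gave 6 to 9 members higher, 4 to 6 lower and a median of 0.0137 to 0.0399, with 2450 to 2726 of all genes higher and 3261 to 3631 lower in the same fits; 6 were higher without control siRNA replicate 3, RUVBL1 siRNA replicate 1 or RUVBL1 siRNA replicate 2. Among members near 0, the sign then turned for 5: INO80B ran between -0.00862 and 0.112, INO80C between -0.0649 and 0.0398 (0.0238 and 0.0244 without RUVBL1 siRNA replicates 3 and 2), UCHL5 between -0.00699 and 0.0685, ACTR6 between -0.00196 and 0.0545, and EP400 between -0.0524 and 0.00218 (0.00153 without RUVBL1 siRNA replicate 3). Without replicate 1 of both groups 7 were higher and 4 lower, and TFPT (-0.0108) and EP400 (0.02) turned. Other turns of sign were INO80C at 0.00101 with DESeq2 size factors and 0.00819 with at least 50 counts in 3 libraries, MORF4L1 at -0.000398 without the low-count filter, and UCHL5 (-0.00508) and MORF4L1 (-0.017) relative to the members' mean. Of the within-library log2 ratios, ACTR5/ACTR8 was -0.0274 without replicate 1, INO80/SRCAP 0.00285 and ING3/MRGBP 0.0145 without replicate 3, and KAT5/EP400 0.0203 without replicate 2. The cause of these changes was not tested.

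The replicate block kept 10 members higher and 6 lower, with a median of 0.0379, and changed no member's call. INO80D, YY1 and H2AZ2 kept their calls under all 18 alternatives that give a test.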
